A study of Mus musculus with 6 samples.

Results

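The genes described here are those of ubiquitin conjugation and removal whose platform symbols begin with Ube2 (E2 conjugating enzymes), Trim and a digit (tripartite motif ligases) or Usp and a digit (ubiquitin-specific proteases), with Ube2l6 and Usp18 left out. The Illumina mouse bead array carried 195 probes for 126 such genes. A gene counted as measured when one of its probes was detected (detection p below 0.05) on 3 or more of 6 arrays, and its brightest such probe stood for it. This left 42 members of the 6331 genes and unnamed probes tested, 12 of 26 Ube2, 14 of 54 Trim and 16 of 46 Usp genes. Dendritic cells (DCs) had been sorted from peripheral lymph nodes of mice given broad-spectrum antibiotics by gavage for 10 days (3 arrays) or of mice labelled as untreated (3 arrays). The strain, the age, the antibiotics, the sort gate and whether untreated mice were gavaged are not given in the sources used here, nor whether the arrays hold separate mice or pools, so that the p-values cover nothing but differences among these 6 samples and could reflect technical spread. Effects of gavage and of the antibiotics cannot be told apart.

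Ubiquitin is attached to proteins by a relay in which an activating enzyme (E1) passes it to an E2, and an E3 ligase then directs the E2 to a substrate. Most TRIM proteins are RING-type E3 ligases, several of which are induced by interferon and act in antiviral defence, and the USP family is the largest group of deubiquitinases, which take ubiquitin off again. In DCs this system controls the surface display of antigen-presenting molecules, the strength of signals from pattern recognition receptors and the supply of peptides made by the proteasome.

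The arrays detected 6876 to 7674 probes each and correlated at 0.963 to 0.984 over the tested rows. On the first principal component antibiotics replicate 1 lay at -25.3, far from the other 5 arrays (1.36 to 11.5). Of 8 DC core genes on the array 7 were measured, with log2 fold changes between -0.13 (Zbtb46) and 0.25 (Irf4), while Flt3, for the receptor that drives DC growth, was detected on 0 arrays. The summed linear level of the 7 was 28552 to 29529 in antibiotics samples and 27644 to 28308 in untreated samples, without overlap. This sum was mostly that of H2-Ab1 and Cd74 and says little of the other genes. H2-Ab1 averaged 13.9 log2 units in both groups, and Cd74 averaged 13.4 in antibiotics samples and 13.3 in untreated samples. Of the 7, Cd74 (0.13) and Irf8 (0.16) did not overlap gene by gene. Summed linear levels of markers of 3 other cell types also did not overlap between the groups. For macrophages and monocytes (3 of 5 measured) the sum was 1600 to 1816 in antibiotics samples and 1037 to 1433 in untreated samples, for B cells (3 of 7) 238 to 279 in antibiotics samples and 307 to 364 in untreated samples, and for plasmacytoid DCs (3 of 5) 598 to 690 in antibiotics samples and 695 to 877 in untreated samples. Gene by gene, Fcmr of B cells (-1.06, SE 0.27) and Lyz2 (0.54, SE 0.18) and Adgre1 (0.33, SE 0.14) of macrophages did not overlap. Cd79b (-0.057) and Cd22 (-0.79) of B cells, Cd14 of monocytes (-0.080) and all 3 measured plasmacytoid DC markers (-0.36 to -0.22) overlapped. The sums for T cells, NK cells, neutrophils and stroma, with 1 marker measured each, overlapped. Cd79a, Ms4a1, Pax5, Cd3e, Ncr1, S100a8 and Mertk, defining markers of B, T and NK cells, neutrophils and macrophages, were detected on 0 arrays, and Siglech of plasmacytoid DCs on 2. The part of such cells in the results below was not tested, and in bulk samples fewer cells of a type and less RNA per cell cannot be told apart.

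None of the 42 members passed the threshold. With limma and Benjamini-Hochberg adjustment over all 6331 rows, 0 members and 0 rows (0% of all tested) reached an adjusted p of 0.05, and the lowest adjusted p among the members was 0.344. Before adjustment 3 members had a limma p under 0.05, Trim32 higher after antibiotics and Usp47 and Ube2f lower. That is 7.14% of the members, against 7.74% of all rows (3.41% higher and 4.33% lower). In 6 members the 3 antibiotics arrays all lay on one side of the 3 untreated ones in normalized level. Trim32, Trim28 and Usp4 were higher and Usp47, Ube2f and Trim21 lower. The share of these 6 members, 14.3%, lay beside 13.7% of all rows (7.12% higher and 6.62% lower). Both shares of the members were thus near those of all rows. Without antibiotics replicate 1, 3 members had a p under 0.05 (7.22% of rows) and 11 did not overlap (23.8% of rows), with Ube2n rather than Ube2f among those with a p under 0.05.

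**Figure D1:**
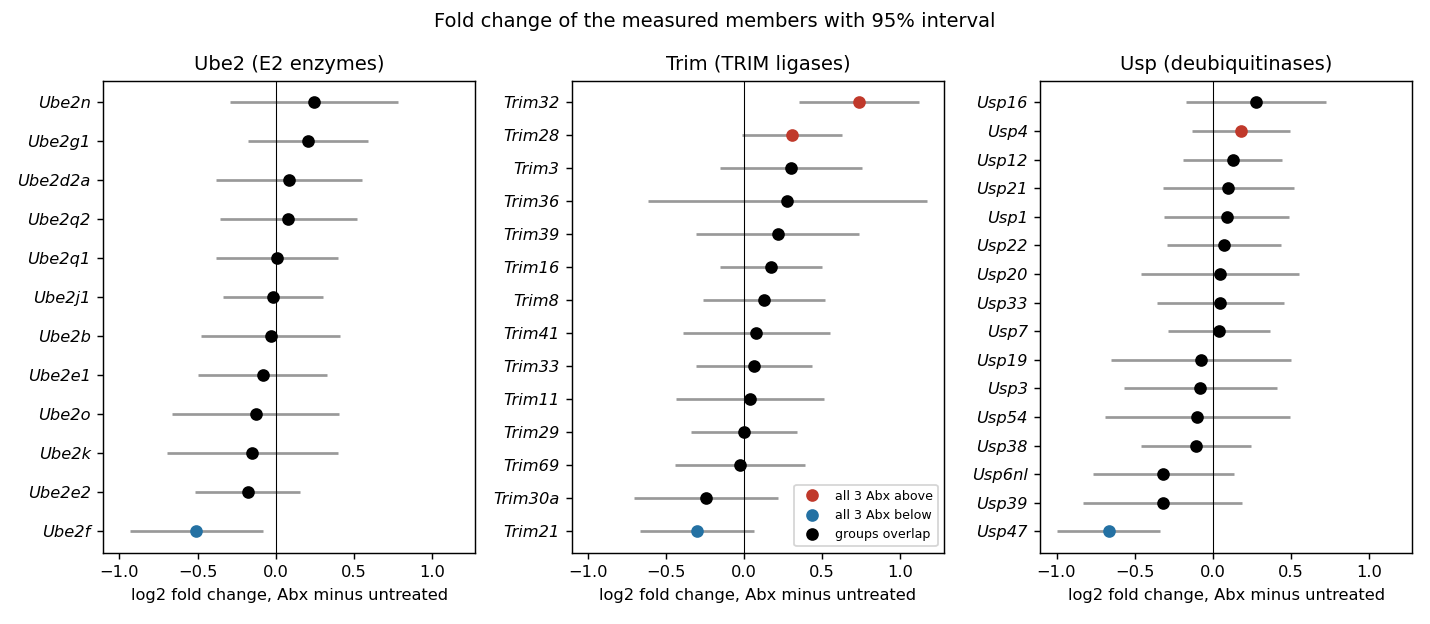
Fold change of each of the 42 measured members, as antibiotics (Abx) minus untreated on the log2 scale (points), with limma's 95% interval (grey bars), in 3 panels for the Ube2, Trim and Usp genes. Trim32, Usp47 and Ube2f are the members whose interval does not reach 0, and the other points lie between -0.32 and 0.31.

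The 3 classes lay close to the untreated level. The median log2 fold change was -0.024 for the Ube2 genes (5 of 12 above the untreated level), 0.10 for the Trim genes (10 of 14 above) and 0.044 for the Usp genes (9 of 16 above), beside 0.017 over all rows. In all, 24 of 42 members (57.1%) and 53.6% of all rows were above the untreated level. With median scaling in place of quantile normalization these were 15 of 42 members (3 Ube2, 7 Trim and 5 Usp genes) and 38.2% of rows, because that scaling put the median of all rows at -0.071, so small positive values below are relative to the scaling. Averaged over its measured members, the Ube2 class stood at 7.09 ± 0.031 log2 units in antibiotics samples and 7.13 ± 0.046 in untreated samples (SD, n = 3 each). The Trim class stood at 6.60 ± 0.14 in antibiotics samples and 6.48 ± 0.012 in untreated samples, with antibiotics replicate 1 at 6.76 and the other antibiotics arrays at 6.49 and 6.56. The Usp class stood at 6.65 ± 0.12 in antibiotics samples and 6.69 ± 0.043 in untreated samples. The groups overlapped in the Ube2 and Usp classes. In the Trim class they did not overlap but nearly touched, with the lowest antibiotics array at 6.491 and the highest untreated one at 6.490. The 95% interval of the fold change lay within 1 log2 unit (2-fold) either way for 40 of the 42 members, and its median width was 0.83.

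Among the TRIM genes, Trim32 differed most. It encodes an E3 ligase best known in muscle, where it targets structural proteins. Its normalized level was 6.59, 6.36 and 6.13 log2 units in antibiotics samples, against 5.45, 5.68 and 5.75 in untreated samples. The deposited intensities were 153, 152 and 146 in antibiotics samples and 110, 130 and 118 in untreated samples. Each antibiotics array was thus above each untreated one on both scales, with the probe near the dim end of the array. The log2 fold change was 0.73 (SE 0.17, 95% interval 0.35 to 1.12), or 1.66-fold, with a limma p of 0.0021 and an adjusted p of 0.352, and it stood 36th of 6331 by p. Over the 15 alternatives its fold change ran from 0.35 without background correction to 0.99 with the authors' normalized table, and its adjusted p from 0.199 to 0.786. A second Trim32 probe was detected on 0 arrays.

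Usp47 differed most among the deubiquitinases. Its product trims ubiquitin from DNA polymerase beta, a base excision repair enzyme. Normalized levels were 7.79, 7.70 and 7.99 log2 units in antibiotics samples, against 8.51, 8.57 and 8.39 in untreated samples. In deposited intensity these were 258, 278 and 341 in antibiotics samples, against 411, 538 and 380 in untreated samples. The highest antibiotics array stayed below the lowest untreated one by both measures. The log2 fold change was -0.66 (SE 0.14, 95% interval -0.99 to -0.33), or 0.631-fold, with a limma p of 0.0015 and an adjusted p of 0.344, which placed it 25th of all rows. Leaving out single arrays moved it between -0.75 and -0.60, and over all 15 alternatives the adjusted p ran from 0.157 to 0.786. Usp47 had 1 probe on the array.

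**Figure D2:**
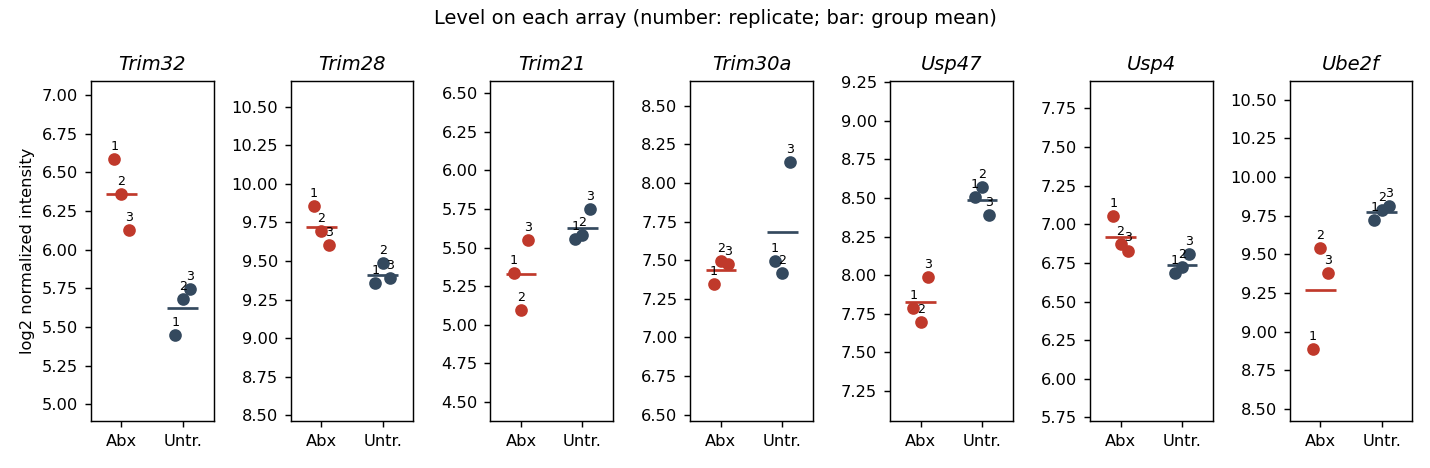
Log2 normalized intensity of 7 members on each array, in antibiotics (Abx, left) and untreated (Untr., right) samples, with the replicate number beside each point and a bar at the group mean; all panels span the same number of log2 units. The groups are apart in Trim32, Trim28, Trim21, Usp47, Usp4 and Ube2f, and untreated replicate 3 alone is high in Trim30a.

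The lowest of the E2 genes after antibiotics was Ube2f, which encodes an E2 for the ubiquitin-like modifier NEDD8 and serves the cullin Cul5. Its brightest probe gave 8.89, 9.54 and 9.38 log2 units in antibiotics samples, against 9.73, 9.79 and 9.82 in untreated samples. All antibiotics arrays were below all untreated ones, with antibiotics replicate 1 the lowest. The log2 fold change was -0.51 (SE 0.19, 95% interval -0.93 to -0.083), with a limma p of 0.025 and an adjusted p of 0.565, and it was -0.32 without antibiotics replicate 1. The probes for Ube2f disagreed. Another bright probe gave -0.37 (SE 0.19), while the 2 dimmer ones gave 0.11 (SE 0.19) and -0.0016 (SE 0.18), and the mean over all 4 probes was -0.19 with a limma p of 0.18.

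Nae1, a subunit of the E1 enzyme for the same modifier NEDD8, lay at a similar distance. It averaged 9.16 log2 units in antibiotics samples and 9.65 in untreated samples, without overlap, for a log2 fold change of -0.49 (SE 0.18) and an adjusted p of 0.565 in limma. With the mean over its kept probes the fold change was -0.37. Cullins are the main proteins that carry NEDD8. Of 10 measured members of the cullin-RING ligase core, 6 were above and 4 below the untreated level (4 above and 6 below with median scaling), with a median of 0.028 (-0.035 without antibiotics replicate 1) and the groups apart in 0. Their lowest value was that of Eloc (elongin C) at -0.34 (SE 0.17), and Cul5 stood at -0.081 (SE 0.17).

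In the other 11 measured E2 genes the groups overlapped by the brightest probe. Ube2n, which builds the chains that carry NF-kB signals rather than mark proteins for degradation, was at 5.26, 6.20 and 5.90 log2 units in antibiotics samples, against 5.47, 5.71 and 5.45 in untreated samples. Antibiotics replicate 1 was the lowest of the 6 arrays and the other antibiotics arrays were the highest. Its log2 fold change was 0.24 (SE 0.24), 0.51 without antibiotics replicate 1 and 0.040 without antibiotics replicate 2. Ube2d2a, of the E2 family that works with many E3 ligases, stood at 0.085 (SE 0.20; below 0 with median scaling), and Ube2e2 at -0.18 (SE 0.15; -0.099 without antibiotics replicate 2 and -0.12 without untreated replicate 3). Ube2g1, an E2 of protein degradation at the endoplasmic reticulum, stood at 0.21 (SE 0.17), 0.067 without antibiotics replicate 1 and 0.34 without antibiotics replicate 2. Ube2k and the E2/E3 hybrid gene Ube2o stood at -0.15 (SE 0.24) and -0.13 (SE 0.23), and without antibiotics replicate 1 both turned positive (0.071 and 0.057). Ube2q1 stood at 0.0060 (SE 0.17) by its brightest probe, whereas its other probe gave 5.47, 5.20 and 5.66 log2 units in antibiotics samples against 5.81, 5.97 and 6.05 in untreated samples, a fold change of -0.50 (SE 0.16). The E2 genes of mitosis and DNA damage were hardly seen. Ube2c, Ube2s and Ube2t were detected on 0 arrays, Ube2a on 1, and Ube2b stood at -0.032 (SE 0.20).

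**Figure D3:**
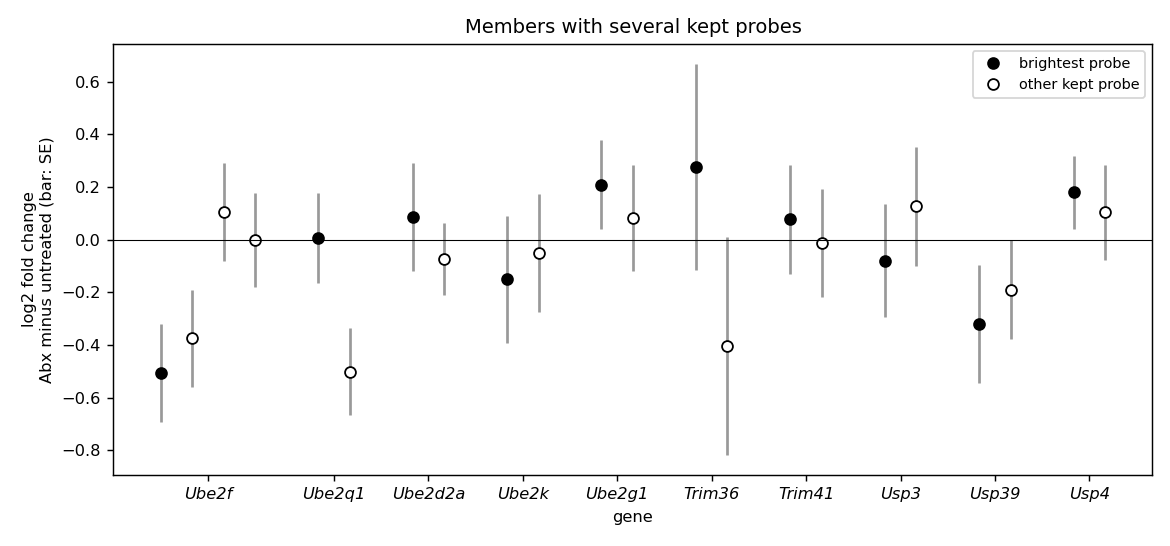
Log2 fold change, antibiotics (Abx) minus untreated, of every kept probe of the 10 members with several kept probes, with the SE as a bar; filled points are the brightest probe, which stands for the gene, and open points the others. In 6 genes (Ube2f, Ube2q1, Ube2d2a, Trim36, Trim41 and Usp3) the probes lie on both sides of 0.

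Of 13 TRIM genes on the array that are listed as interferon-induced or as acting in antiviral signalling, 2 were measured, Trim21 and Trim30a. Both lay below the untreated level after antibiotics and neither passed. Their promoter windows are shown because they alone, among the 29 measured members with a promoter in the RefSeq table (38 windows), held the core of the interferon-stimulated response element. This core was searched as GAAA, 2 free bases and GAAA, or as TTTC, 2 free bases and TTTC for the opposite strand, from 250 bases before to 50 bases after each gene start, and matches could overlap. It occurred in 3.44% of all 32851 windows and in 3.99% of genes. A match is a run of letters and not a shown binding site. The windows below run 5′ to 3′ on the minus strand of chromosome 7 (GRCm38.p6), with the matches in capitals. In Trim21 a pair of overlapping matches began at positions 14 and 20 counted from the gene start, and Trim30a has a match on the opposite strand in the windows of both of its listed starts, at -36 (the first shown) and at 3 (the other).
Trim21, chr7:102565433-102565732, minus strand: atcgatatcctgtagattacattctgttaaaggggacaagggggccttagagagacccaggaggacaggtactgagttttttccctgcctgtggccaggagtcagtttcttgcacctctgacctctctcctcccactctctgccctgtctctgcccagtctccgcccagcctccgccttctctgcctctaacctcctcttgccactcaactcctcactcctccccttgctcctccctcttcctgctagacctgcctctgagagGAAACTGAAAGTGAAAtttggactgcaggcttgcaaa
Trim30a, chr7:104465144-104465443, minus strand: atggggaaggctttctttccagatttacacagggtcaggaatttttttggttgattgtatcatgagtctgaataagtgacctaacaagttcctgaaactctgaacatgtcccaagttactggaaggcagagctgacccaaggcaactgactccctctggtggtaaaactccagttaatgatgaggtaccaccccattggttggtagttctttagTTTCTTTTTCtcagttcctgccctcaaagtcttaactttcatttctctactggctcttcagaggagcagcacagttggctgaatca
Trim30a, chr7:104446076-104446375, minus strand: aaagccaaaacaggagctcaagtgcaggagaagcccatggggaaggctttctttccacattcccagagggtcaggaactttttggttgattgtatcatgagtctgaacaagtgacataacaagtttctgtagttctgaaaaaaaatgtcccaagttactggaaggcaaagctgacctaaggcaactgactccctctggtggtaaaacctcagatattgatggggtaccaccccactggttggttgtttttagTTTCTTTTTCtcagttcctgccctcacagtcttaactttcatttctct

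Trim21, a cytosolic receptor that sends antibody-coated viruses to the proteasome, had levels of 5.34, 5.10 and 5.55 log2 units in antibiotics samples, against 5.56, 5.58 and 5.75 in untreated samples. The highest antibiotics array was only just below the lowest untreated one. The deposited intensities overlapped, at 110, 103 and 120 in antibiotics samples and 113, 126 and 118 in untreated samples. The log2 fold change of Trim21 was -0.30 (SE 0.16), with an adjusted p of 0.719 in limma. It was -0.19 without antibiotics replicate 2 and -0.12 without background correction. Trim30a, an interferon- and Toll-like receptor-induced gene described in mouse as a brake on NF-kB signalling, had 7.35, 7.49 and 7.48 log2 units in antibiotics samples, against 7.50, 7.42 and 8.13 in untreated samples. Untreated replicate 3 was high and the other 5 arrays lay together. The log2 fold change was -0.24 (SE 0.20), and -0.018 without untreated replicate 3, so that 1 array carried nearly all of it. On the same arrays the summed level of 7 measured type I interferon-stimulated genes was 1331 to 1447 in antibiotics samples and 1925 to 2762 in untreated samples, with untreated replicate 3 the lowest of the untreated arrays. These 7 include Usp18, which removes the ubiquitin-like ISG15 and was not counted as a member. Usp18 had the highest mean level of the 7 in both groups and stood at -0.35 (SE 0.16). Trim25, the ligase that activates the RNA sensor RIG-I, was detected on 2 arrays and Trim30b on 1. Trim12c, Trim14, Trim30d, Trim38 and Trim56 were detected on 0.

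Of 3 TRIM genes of chromatin and transcription on the array, 2 were measured, both above the untreated level, as were 8 of the 10 measured TRIM genes with other roles (5 of 10 with median scaling). Trim28, the corepressor of KRAB zinc finger proteins that keeps endogenous retroviruses silent, was at 9.86, 9.69 and 9.60 log2 units in antibiotics samples, against 9.36, 9.49 and 9.39 in untreated samples. Every antibiotics array was above every untreated one on this scale. The deposited intensities overlapped, at 850, 879 and 898 in antibiotics samples and 689, 967 and 680 in untreated samples. The log2 fold change was 0.31 (SE 0.14), with a limma p of 0.058 and an adjusted p of 0.641, and it was 0.15 with median scaling. Its relative Trim33, a regulator of SMAD signalling, stood at 0.065 (SE 0.16), and at -0.050 without antibiotics replicate 3 and -0.023 without untreated replicate 3. Trim8, which promotes NF-kB activation, stood at 0.13 (SE 0.17; just below 0 with median scaling), Trim16 at 0.17 (SE 0.14) and Trim3 at 0.30 (SE 0.20), the last detected on 3 of 6 arrays. Without antibiotics replicate 1 these were 0.23 (Trim8), 0.085 (Trim16) and 0.11 (Trim3), and Trim8 was 0.010 without untreated replicate 3. Trim36 illustrates how 1 array can set a fold change. It had 7.16, 5.55 and 5.53 log2 units in antibiotics samples, against 5.68, 5.82 and 5.91 in untreated samples, so its value of 0.28 (SE 0.39) became -0.26 without antibiotics replicate 1, and its other kept probe gave -0.40 (SE 0.41).

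Of the 11 Usp genes listed as acting on NF-kB, Toll-like receptor or interferon signals, 6 were measured, 4 above and 2 below the untreated level (2 above and 4 below with median scaling), between -0.11 and 0.18. Usp4, a close relative of Usp15, had 7.05, 6.87 and 6.83 log2 units in antibiotics samples, against 6.69, 6.72 and 6.80 in untreated samples. The groups did not overlap but nearly touched. In deposited intensity they overlapped, at 184, 187 and 193 in antibiotics samples and 166, 197 and 174 in untreated samples. The log2 fold change was 0.18 (SE 0.14) with an adjusted p of 0.798 in limma, and 0.11 without antibiotics replicate 1. Usp7, which stabilises the ligase Mdm2, stood at 0.041 (SE 0.14) and Usp20 at 0.048 (SE 0.22), both below 0 with median scaling, and Usp3 at -0.079 (SE 0.22). Usp15 and Usp25 were detected on 0 arrays. Of the Usp genes of histones and DNA repair 3 of 8 were measured, all above the untreated level at 0.071 to 0.28 (2 of 3 with median scaling), the last being the histone deubiquitinase gene Usp16 (SE 0.20). Leaving out single arrays moved Usp16 between 0.17 and 0.45 (without untreated replicates 1 and 2). Usp12 stood at 0.13 (SE 0.14), and at 0.073 without antibiotics replicate 1. Usp39 and Usp6nl bear the family name without acting as deubiquitinases, as a splicing factor and a Rab GTPase-activating protein, and stood at -0.32 (SE 0.22) and -0.32 (SE 0.20) with overlapping groups. Without antibiotics replicate 1 Usp39 stood at -0.089 and Usp6nl at -0.18. Usp14, a deubiquitinase that binds the proteasome, and Usp8, which acts at endosomes, were each detected on 2 arrays.

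**Figure D4:**
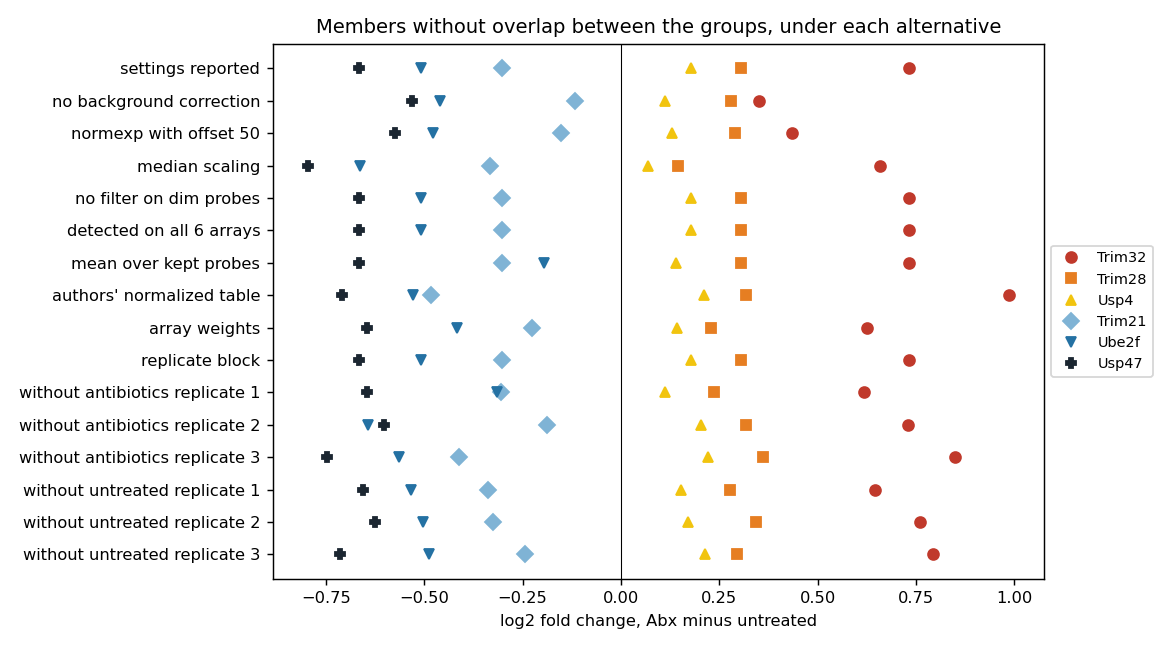
Log2 fold change, antibiotics minus untreated (x axis), of the 6 members whose groups did not overlap, with the settings reported in the top row and each of the 15 alternatives below. Every point keeps its side of 0, while Trim32 runs from 0.35 to 0.99 and Ube2f from -0.66 to -0.19.

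Other genes of the pathway are given from 5 lists, in which 0 genes passed the threshold; over all rows 53.6% were above the untreated level and 13.7% did not overlap. Of ligases of the HECT and RBR types, 2 of 17 measured were above and 15 below the untreated level, with a median of -0.089 (1 and 16, median -0.18, with median scaling), and Arel1 at -0.22 (SE 0.14) was the 1 member without overlap. Of deubiquitinases outside the Usp family, 5 of 18 were above and 13 below, with a median of -0.079 (2 and 16, median -0.18, with median scaling; median -0.0044 without the filter on dim probes), and 2 of 18 (11.1%) did not overlap. Psmd14, the proteasome lid enzyme that strips ubiquitin from substrates, stood at -0.40 (SE 0.16, adjusted p 0.629 in limma) and Eif3h at -0.36 (SE 0.19; -0.19 without antibiotics replicate 1), both without overlap. Of RING ligases of immune signalling, 5 of 10 were above (4 with median scaling), with a median of 0.0020 that was below 0 without any one of the 6 arrays. Birc3, a ligase of TNF receptor signalling, stood at 0.30 (SE 0.15) without overlap and Mdm2 at -0.39 (SE 0.19; -0.24 without antibiotics replicate 2). All 3 measured genes of the ubiquitin and E1 list (Nae1, Uba7 and Sae1) were below the untreated level, with a median of -0.14 that became 0.042 without antibiotics replicate 1.

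Accounting for the members that were not measured, 84 of 126 had no probe detected on 3 arrays. Of these, 69 had no probe detected on any array and 15 were detected on 1 or 2 arrays. The share measured was 46.2% of Ube2, 25.9% of Trim and 34.8% of Usp genes, against 35.6% of all 16593 named genes of the platform. Among the 15, Usp28 was detected on 0 antibiotics and 2 untreated arrays, and the rest on at most 1 array of each group.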

How the data were processed

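Biotin-labelled total RNA of sorted lymph node DCs was read on Illumina mouse bead arrays, per the labels. The authors deposited probe intensity that is not normalized and, per the file headers, its detection p-value. A second deposited table holds normalized intensity on a linear scale, made by steps not given in the sources used here, and was used as an alternative. The series' value table equalled it in 154182 of 154182 cells.

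The intensity was processed here with neqc of limma 3.58.1 (R 4.3.3), which applied normexp background correction from the detection p-values, an offset of 16, quantile normalization and log2. The offset understates fold changes of dim genes, and quantile normalization hides a shift common to all genes. Probes with a detection p under 0.05 on 3 of 6 arrays were kept (7507 of 25697), and the probe with the highest mean stood for a gene. Symbols came from the platform annotation, with 1 gene or none per probe. Groups were compared with lmFit and eBayes (8.57 degrees of freedom), adjusted by Benjamini-Hochberg over 6331 rows, at a threshold of 0.05. An exact permutation test of 3 arrays against 3 cannot give a p below 0.1. The procedure was tested on simulated data. Fold changes are antibiotics minus untreated. The number of arrays limits the precision. Levels of different probes are not comparable. No batch is named in the sources used here.

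The members, the lists and the naming rule were chosen with earlier results of these data known. The rule named, per class, the 6 genes with the smallest p, the 3 with the highest mean and fixed genes, of which Ube2d3, Ube2c, Trim25, Usp8, Usp14, Usp15 and Usp25 were not measured and Ube2v1 and Ube2m are not analysed here. Pathway genes were up to 3 per list by smallest p. Trim36, Cul5, Ube2b, Usp18 and the genes that were not measured were named after their values were seen. The summed marker levels are sums of linear normalized values. Promoter windows are RefSeq sequences of GRCm38.p6, and 29 of 42 members matched by gene ID and symbol. The alternatives were other background corrections, median scaling, other filters, the mean over probes, the authors' table, array weights, a replicate block and leaving out each array.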

Additional observations from a re-analysis of the deposited data

How the results depend on the processing

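Under all 15 alternatives limma gave 0 members and 0 rows with an adjusted p under 0.05, and 341 to 1094 rows and 2 to 7 members with an unadjusted one. Trim32 and Usp47 were among these members each time. Without the filter on dim probes 1094 of 18312 rows (5.97%) had a p under 0.05 (490 of 6331 with it). Groups were apart in 2132 rows (11.6%) without it and in 870 with it. With median scaling 73 of 398 rows with a p under 0.05 were higher, against 216 of 490. For the classes, the Trim count at a p under 0.05 was 2 without background correction (8.32% of all rows) and with an offset of 50 (8.26%). With median scaling the median was -0.0031 for Trim and -0.077 for Usp, with 1 Usp gene apart (11.9% of all rows). Without the filter the Trim median was 0.0034, 3 Trim and 3 Usp genes had a p under 0.05, and 2 Ube2, 5 Trim and 7 Usp genes were apart, over all 126 genes. With the mean over probes 0 Ube2 genes had a p under 0.05 (7.8% of all rows), and 2 Ube2 genes and 1 Usp gene were apart (13.9% of all rows). The cause of these moves was not tested.

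Leaving out each array in turn gave medians of -0.097 to 0.033 (Ube2), 0.024 to 0.15 (Trim) and -0.012 to 0.068 (Usp). Counts at a p under 0.05 were 0 to 1, 1 to 2 and 1 to 2, beside 5.39% to 8.67% of all rows. Counts of genes apart were 1 to 4, 3 to 6 and 3 to 6, beside 21.2% to 25.8% of all rows, since 2 arrays against 3 part more easily.

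Of 507 single-gene values 478 kept their sign. With median scaling Ube2d2a (-0.078), Ube2q1 (-0.15), Trim8 (-0.018), Usp20 (-0.087) and Usp7 (-0.039) turned, with the mean over probes Ube2q1 (-0.25), Usp3 (0.024) and Trim36 (-0.063), and with array weights Ube2d2a (-0.020), Ube2q1 (-0.075), Usp3 (0.084) and Trim36 (-0.041). Leaving out arrays moved Ube2k from -0.40 to 0.071, Ube2o from -0.29 to 0.082, Ube2d2a from -0.14 to 0.26, Ube2q1 from -0.11 to 0.14, Usp3 from -0.33 to 0.081, Usp20 from -0.15 to 0.18, Trim33 from -0.050 to 0.14, Usp7 from -0.012 to 0.12 and Trim36 from -0.26 to 0.55.

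The replicate numbers are shared between the groups, but arrays with the same number did not deviate together (correlations of -0.046, -0.060 and -0.15). With the replicate number as a block 417 rows had a p under 0.05 and 0 passed, with an adjusted p of 0.658 for Trim32 and 0.645 for Usp47. The recomputed pathway lists and Trim36, Nae1, Psmd14, Eif3h, Mdm2, Birc3, Arel1, Eloc and Usp18 were added after the data were seen.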

Other observations

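Among the 10 members with several kept probes, both probes of Usp39 (-0.32 and -0.19), Usp4 (0.18 and 0.10), Ube2g1 (0.21 and 0.083) and Ube2k (-0.15 and -0.051) lay on the same side of the untreated level. Ube2d2a (0.085 and -0.075), Trim41 (0.077 and -0.013) and Usp3 (-0.079 and 0.13) did not, although each of these 6 probes was detected on all 6 arrays. The dimmer pair of Ube2f probes was highest on antibiotics replicate 1 (6.76 and 6.69 log2 units), the array on which both brighter probes were lowest (8.89 and 8.57).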
